A study of Homo sapiens with 8 samples.

Results

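The genes described here are 10 human genes of the noradrenaline pathway: GCH1, TH, DDC, DBH and PNMT of synthesis, CYB561, SLC18A1 and SLC18A2 of vesicle loading, SLC6A2 of reuptake and MAOA of breakdown. They were chosen by symbol and found in the count table by their Ensembl identifiers, 10 of 60676 identifiers. Of these members, 9 were among the 16680 genes that passed the filter on low counts and were tested, and PNMT was not. They were measured by RNA-seq in aggregates of IGR-N91, a human neuroblastoma (NB) cell line, formed in hanging drops.

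There were 4 groups of 2 libraries. The control group was kept in medium in which no tissue had been cultured. The others were kept in medium conditioned by sympathetic ganglia of E8 chick embryos (E8-cSGcm), by dorsal root ganglia of E8 chick embryos (E8-cDRGcm) or by sympathetic ganglia of E15.5 mouse embryos (E15.5-mSGcm). E8 and E15.5 are days of embryonic development, and the labels also write E8-cGScm and E15.5-mGScm for the media of sympathetic ganglia. The exposure was 20 h by the labels, while the design text of the series gives another time. All groups share 1 cell line, and the conditioned media differ in ganglion or, between mouse and chick, in species and embryonic stage together. The methods speak of duplicates and of distinct samples and do not say whether both libraries of a group came from separate cultures, so the p-values measure the spread between these libraries, which may be technical.

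Noradrenaline is made from tyrosine in a short chain of enzymes. Tyrosine hydroxylase (TH), which needs the cofactor tetrahydrobiopterin that GCH1 starts to make, forms L-DOPA, aromatic L-amino acid decarboxylase (DDC) turns it into dopamine, and dopamine beta-hydroxylase (DBH) finishes the chain inside the vesicle, using electrons that cytochrome b561 (CYB561) carries across the vesicle membrane. Vesicular monoamine transporters load the vesicle, the noradrenaline transporter takes released noradrenaline back up, and monoamine oxidase degrades it, a set of functions that sympathetic neurons share with most noradrenergic NB cells.

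The libraries held 7930765 to 15060744 counts, the 2 E15.5-mSGcm libraries being the smallest. Levels are given in CPM, counts scaled for the size of the library after TMM normalisation, and 3 counts correspond to 0.199 to 0.378 CPM, a floor that covers counting error only. Within each group the libraries differed beyond counting error (chi-square of 1.87 to 3.96 per gene). All 9 sympathetic neuroblast markers had reads, with a summed level of 2918.7 to 3523.9 CPM in every library. The Schwann cell markers SOX10 and FOXD3 and the adrenal cortex markers CYP17A1 and CYP21A2 had no read in any of the 8 libraries. Other markers of these lists did have reads, with 12 and 9 for ERBB3 and 63 and 85 for STAR in control medium. All 6 fibroblast markers had reads, with a summed level of 413 to 473 CPM over the libraries. All tests are quasi-likelihood tests of edgeR, fitted jointly to the 8 libraries, and p-values were adjusted by the Benjamini-Hochberg method over the 16680 genes. A gene was called, and is said to have risen or fallen, at an adjusted p under 0.05 together with a fold change of at least 1.5.

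Each conditioned medium lowered part of the pathway, and the part differed between media. Against control medium, E8-cSGcm lowered DBH, CYB561, SLC18A1 and SLC6A2, which is 4 of the 9 tested members where 3.86% of all tested genes fell. E8-cDRGcm lowered the same genes and DDC, 5 of 9 members where 10.9% of all tested genes fell. E15.5-mSGcm lowered TH, GCH1, CYB561, SLC18A1, SLC18A2 and SLC6A2, 6 of 9 members where 7.27% of all tested genes fell. The median log2 fold change of the 9 members was -0.513 in E8-cSGcm, -1.285 in E8-cDRGcm and -0.847 in E15.5-mSGcm, against medians of 0.01, 0.006 and -0.015 over all tested genes. No member was called higher in any of these comparisons by edgeR or by DESeq2, where edgeR called 4.73%, 9.81% and 6.65% of all tested genes higher. DBH in E15.5-mSGcm was higher than in control medium at an adjusted p of 3.39e-05 by edgeR and stayed under the fold criterion. MAOA in E8-cDRGcm was higher at an unadjusted p under 0.05 only (adjusted p = 0.0602 by edgeR). The 3 comparisons share the control libraries. The members were chosen with earlier results of these data known, so the shares describe this list and were not tested as enrichment. In bulk RNA, fewer cells expressing a gene and less RNA per cell cannot be told apart.

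**Figure D1:**
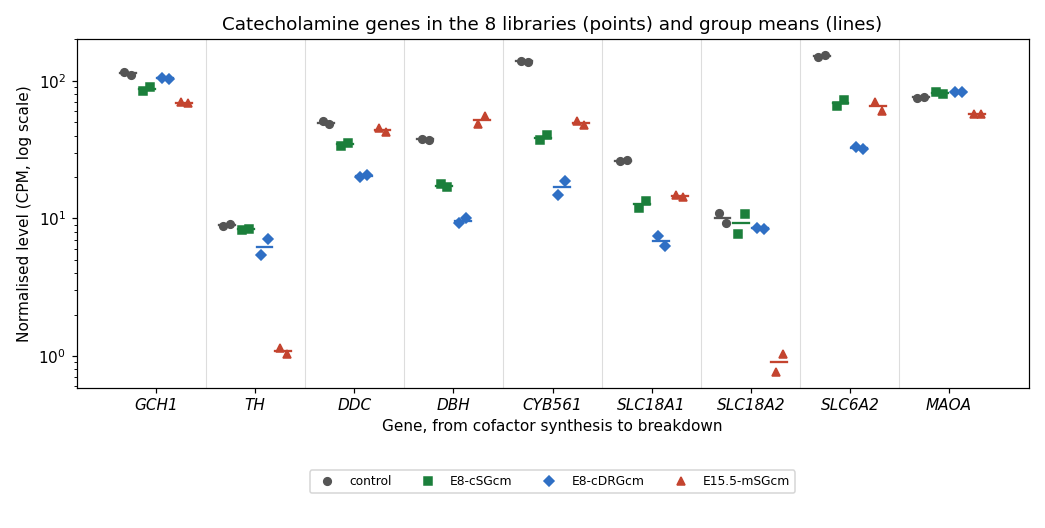
Level of the 9 tested genes in CPM (log axis) in each of the 8 libraries (points) with the mean of each group (lines), in the order of the pathway. TH and SLC18A2 lie near 1 CPM in both E15.5-mSGcm libraries and between 5.46 and 10.9 CPM in the other 6, while DBH is lowest in E8-cDRGcm and highest in E15.5-mSGcm.

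Levels were compared between genes only per kb of exonic length, in CPM per kb, as means of the 2 control libraries. GCH1 was the highest member at 38.8 ± 1.07 (SD, n = 2), followed by CYB561 at 26.3 ± 0.321, SLC6A2 at 18.9 ± 0.543, DDC at 16.1 ± 0.614 and DBH at 13.7 ± 0.179. The vesicular transporter SLC18A1 had 6.73 ± 0.026 and MAOA 5.83 ± 0.0217. TH, whose enzyme opens the chain, was among the lowest at 2.82 ± 0.0457, next to SLC18A2 at 2.45 ± 0.285. The libraries of neighbours in this order did not overlap, and the closest pair was TH (2.79 and 2.85) with SLC18A2 (2.65 and 2.25). The exonic length is the union of all annotated exons, not the length of the transcripts in these cells. For SLC18A2 and SLC6A2 it includes 2157 and 2304 bases shared with another gene, where reads may go uncounted. The order of close genes may depend on the length used, which was not varied. The order differed in the conditioned media. In E8-cDRGcm, DDC (6.61 ± 0.191) and MAOA (6.41 ± 0.00246) followed GCH1 (35.7 ± 0.453), and CYB561 stood at 3.18 ± 0.536. In E15.5-mSGcm, DBH (18.9 ± 1.74) followed GCH1 (23.8 ± 0.525), and TH (0.343 ± 0.0277) and SLC18A2 (0.218 ± 0.0445) were lowest.

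The sequences around the annotated starts of DBH, SLC18A2 and CYB561 are shown, genes that had a window and differed in their patterns over the media. Each window runs from 250 bases before to 50 bases after the start, 5′ to 3′ on the strand of the gene. The windows came from RefSeq on GRCh38.p14. Of the 10 members, 5 were counted as having a window, and the windows of 4 were kept and searched. The 4 are therefore a selection and not all that RefSeq held. CYB561 has further annotated starts, which are not shown. Capitals mark the letters TGACG on either strand, the core of the cAMP response element (CRE), whose full form is TGACGTCA.
DBH, chr9:133636113-133636412, plus strand: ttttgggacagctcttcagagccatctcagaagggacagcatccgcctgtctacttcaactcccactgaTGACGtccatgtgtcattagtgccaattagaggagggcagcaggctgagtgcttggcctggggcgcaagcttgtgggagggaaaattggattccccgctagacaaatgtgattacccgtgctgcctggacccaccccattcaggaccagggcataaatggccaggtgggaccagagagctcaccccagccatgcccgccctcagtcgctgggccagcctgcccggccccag
SLC18A2, chr10:117240864-117241163, plus strand: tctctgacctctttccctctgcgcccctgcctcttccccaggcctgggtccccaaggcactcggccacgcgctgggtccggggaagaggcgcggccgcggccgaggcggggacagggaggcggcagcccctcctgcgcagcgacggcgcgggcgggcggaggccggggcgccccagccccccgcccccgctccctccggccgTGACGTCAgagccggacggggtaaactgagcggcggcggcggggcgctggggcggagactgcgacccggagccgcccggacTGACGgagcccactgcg
CYB561, chr17:63446590-63446889, minus strand: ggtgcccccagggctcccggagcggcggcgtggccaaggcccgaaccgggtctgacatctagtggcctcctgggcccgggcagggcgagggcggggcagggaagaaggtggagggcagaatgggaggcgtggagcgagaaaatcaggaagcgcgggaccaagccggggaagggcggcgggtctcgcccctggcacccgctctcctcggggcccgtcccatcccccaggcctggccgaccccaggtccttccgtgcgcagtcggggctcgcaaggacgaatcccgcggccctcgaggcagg

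The DBH window held TGACG once, with its first base 181 bases before the start, and the letters TATAAA, searched on both strands as a TATA box, were not in it. The SLC18A2 window held the full CRE with its first base 48 bases before the start, and TGACG again 33 bases after it. The CYB561 window held neither form. Over the 35116 RefSeq windows of this length, 1.85% held the full CRE and 24.6% its TGACG core. The GC box, searched as GGGCGG, occurred 5 times in the SLC18A2 window, 2 times in that of CYB561 and 1 time in that of DBH, and in 45% of all windows. CANNTG, the E-box, occurred 3 times in the DBH window and in 68.7% of all windows. The letters AGATAA of a GATA site were in none of these 3 windows and in 10.3% of all windows. The letters TGANTCA of an AP-1 site were also in none of the 3 and in 7.71% of all windows. These matches are letters in a window and were not measured as bound sites. The GC content was 59.3% in the DBH window, 78.7% in the SLC18A2 window and 73.7% in the CYB561 window.

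GCH1 (ENSG00000131979, chromosome 14, 54842017 to 54902826 on GRCh38.p14, minus strand) encodes GTP cyclohydrolase, the first enzyme of tetrahydrobiopterin synthesis. Its level was 116 and 111 CPM in control medium, 84.7 and 90.6 in E8-cSGcm, 105 and 104 in E8-cDRGcm, and 70.7 and 68.5 in E15.5-mSGcm. Both E15.5-mSGcm libraries were below all others, and no 2 groups overlapped. GCH1 fell 1.63-fold in E15.5-mSGcm (95% interval 1.49 to 1.78, log2 fold change -0.70 ± 0.0637 SE, adjusted p = 1.89e-11). In E8-cSGcm it was lower by a factor of 1.29 (1.19 to 1.4, adjusted p = 4.42e-06), which is under the fold criterion. In E8-cDRGcm the log2 difference of -0.12 did not pass the test (95% interval -0.233 to -0.001, adjusted p = 0.0884).

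TH (ENSG00000180176, chromosome 11, 2163929 to 2171815, minus strand) had few reads in every library, 116 and 138 in control medium, 103 and 120 in E8-cSGcm, 73 and 96 in E8-cDRGcm, and 9 and 9 in E15.5-mSGcm. In CPM these were 8.87 and 9.07, 8.26 and 8.40, 5.46 and 7.03, and 1.15 and 1.03, so that the E15.5-mSGcm libraries lay far below the rest and the chick media close to control medium. TH fell 8.19-fold in E15.5-mSGcm (95% interval 5.55 to 12.1, log2 fold change -3.03 ± 0.277 SE, adjusted p = 2.27e-11), to 12.2% of the control mean. When every library was thinned to the total of the smallest, the log2 fold change was -3.00 (adjusted p = 2.51e-12). In E8-cDRGcm, TH was lower by a factor of 1.44 (95% interval of the log2 difference -0.858 to -0.185, adjusted p = 0.00875), under the fold criterion. That difference depended on the libraries and the tool. The log2 difference was -0.355 without replicate 1 of E8-cDRGcm (adjusted p = 0.159) and -0.505 without replicate 2 of control medium (adjusted p = 0.0519), DESeq2 gave an adjusted p of 0.0925, and without replicate 2 of E8-cDRGcm both criteria were passed (-0.71, adjusted p = 0.00649). In E8-cSGcm the log2 difference was -0.11 (95% interval -0.428 to 0.213, adjusted p = 0.661).

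DDC (ENSG00000132437, chromosome 7, 50458442 to 50565405, minus strand) encodes the decarboxylase that makes dopamine. It had 51.1 and 48.4 CPM in control medium, 33.9 and 35.6 in E8-cSGcm, 20.0 and 20.8 in E8-cDRGcm, and 45.6 and 42.5 in E15.5-mSGcm. The groups did not overlap, and the E8-cDRGcm libraries were lowest. DDC fell 2.44-fold in E8-cDRGcm (95% interval 2.16 to 2.75, log2 fold change -1.285 ± 0.0849 SE, adjusted p = 1.96e-15). In E8-cSGcm it was lower by a factor of 1.43 (1.28 to 1.59, adjusted p = 2.48e-06), under the fold criterion. In E15.5-mSGcm the log2 difference of -0.18 did not pass the test (95% interval -0.341 to -0.01, adjusted p = 0.0892).

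DBH (ENSG00000123454, chromosome 9, 133636363 to 133659329, plus strand) was lower than control in both chick media and higher than control in the mouse medium. Its level was 37.8 and 37.2 CPM in control medium, 17.7 and 16.9 in E8-cSGcm, 9.2 and 10 in E8-cDRGcm, and 48.4 and 55.2 in E15.5-mSGcm. The order of the groups was the same in every pair of libraries, with E15.5-mSGcm above control medium and E8-cDRGcm lowest. DBH fell 2.16-fold in E8-cSGcm (95% interval 1.89 to 2.47, adjusted p = 8.24e-12) and 3.89-fold in E8-cDRGcm (3.36 to 4.51, adjusted p = 4.99e-18). In E15.5-mSGcm it was 1.38-fold higher (1.23 to 1.56, log2 fold change 0.47 ± 0.086 SE, adjusted p = 3.39e-05), which is under the fold criterion. When GC content and length of the genes were corrected for, this difference came to a log2 fold change of 0.68 and passed the criterion. The antisense gene DBH-AS1, which shares 118 bases of exon with DBH, had 5 to 23 reads in a library and was not called.

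PNMT (ENSG00000141744, chromosome 17, 39668019 to 39670475, plus strand), whose enzyme turns noradrenaline into adrenaline, had no read in 7 libraries and 1 read in replicate 2 of E15.5-mSGcm. At the floor of 3 counts, a level of up to 0.378 CPM is compatible with a count of 0 in the smallest library. PNMT was not tested.

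CYB561 (ENSG00000008283, chromosome 17, 63432304 to 63446639, minus strand), the electron carrier of the vesicle membrane, was among the members with the largest changes in the chick media. It had 1835 and 2097 reads in control medium, 467 and 572 in E8-cSGcm, 198 and 257 in E8-cDRGcm, and 396 and 416 in E15.5-mSGcm. In CPM these were 140 and 138, 37.4 and 40.1, 14.8 and 18.8, and 50.7 and 47.5, with no overlap between groups. CYB561 fell 3.58-fold in E8-cSGcm (95% interval 3.24 to 3.96, adjusted p = 1.34e-21), 8.26-fold in E8-cDRGcm (7.37 to 9.25, adjusted p = 3.78e-27) and 2.83-fold in E15.5-mSGcm (2.55 to 3.15, adjusted p = 8.36e-19). In E8-cDRGcm it stood at 12.1% of the control mean.

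The vesicular monoamine transporters SLC18A1 (VMAT1) and SLC18A2 (VMAT2), which exchange cytosolic amines for protons, differed in the media in which they fell. SLC18A1 (ENSG00000036565, chromosome 8, 20144855 to 20183136, minus strand) had 26.2 and 26.4 CPM in control medium, 12.0 and 13.4 in E8-cSGcm, 7.48 and 6.30 in E8-cDRGcm, and 14.9 and 14.4 in E15.5-mSGcm. All 6 exposed libraries lay below both control libraries, those of E8-cDRGcm lowest. SLC18A1 fell 2.06-fold in E8-cSGcm (95% interval 1.77 to 2.41, adjusted p = 1.27e-09), 3.82-fold in E8-cDRGcm (3.21 to 4.53, adjusted p = 6.27e-16) and 1.80-fold in E15.5-mSGcm (1.52 to 2.12, adjusted p = 3.47e-07).

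SLC18A2 (ENSG00000165646, chromosome 10, 117241114 to 117279430, plus strand) had 143 and 141 reads in control medium, 96 and 154 in E8-cSGcm, 114 and 115 in E8-cDRGcm, and 6 and 9 in E15.5-mSGcm. In CPM these were 10.9 and 9.27, 7.70 and 10.8, 8.53 and 8.42, and 0.769 and 1.03. The E8-cSGcm libraries overlapped those of control medium, and only the E15.5-mSGcm libraries stood apart, at 8.89% of the control mean. SLC18A2 fell 11-fold in E15.5-mSGcm (95% interval 7.26 to 16.7, log2 fold change -3.46 ± 0.295 SE, adjusted p = 4.42e-12). With libraries thinned to the total of the smallest, the log2 fold change was -3.36 (adjusted p = 5.98e-11). The log2 differences were -0.11 in E8-cSGcm (95% interval -0.431 to 0.208, adjusted p = 0.645) and -0.25 in E8-cDRGcm (-0.572 to 0.077, adjusted p = 0.205). SLC18A2 shares 2157 bases of exon, on opposite strands, with PDZD8, which had 1383 to 2798 reads in a library and was not called, with log2 fold changes of -0.06, 0.16 and -0.03 in the 3 media. The library kit marks strand, and the strand option of the counting is not given in the sources used here.

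SLC6A2 (ENSG00000103546, chromosome 16, 55655988 to 55706192, plus strand) encodes the noradrenaline transporter of the plasma membrane. It had 149 and 155 CPM in control medium, 65.3 and 72.1 in E8-cSGcm, 32.8 and 32.1 in E8-cDRGcm, and 69.9 and 60.4 in E15.5-mSGcm. Every exposed library was below both control libraries, and the E8-cSGcm and E15.5-mSGcm libraries overlapped each other. SLC6A2 fell 2.21-fold in E8-cSGcm (95% interval 2.02 to 2.41, adjusted p = 8.6e-17), 4.68-fold in E8-cDRGcm (4.24 to 5.16, adjusted p = 5.39e-25) and 2.33-fold in E15.5-mSGcm (2.12 to 2.57, adjusted p = 3.71e-17). It shares 2304 bases of exon on the same strand with the gene ENSG00000278928, so that the counting could split reads between them. That gene had 43 to 328 reads in a library and fell in the same media, with log2 fold changes of -1.34, -2.49 and -1.16.

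MAOA (ENSG00000189221, X chromosome, 43655006 to 43746817, plus strand), the monoamine oxidase of noradrenergic neurons, was the only tested member called in none of the 3 media. It had 75.6 and 76.0 CPM in control medium, 83.4 and 80.2 in E8-cSGcm, 83.3 and 83.4 in E8-cDRGcm, and 57.1 and 57.7 in E15.5-mSGcm. The E15.5-mSGcm libraries were lowest, and the chick media lay slightly above control medium. In E15.5-mSGcm, MAOA was lower by a factor of 1.32 (95% interval 1.2 to 1.45, log2 difference -0.40 ± 0.0679 SE, adjusted p = 1.02e-05), under the fold criterion. The log2 differences in E8-cSGcm (0.11, 95% interval -0.015 to 0.232, adjusted p = 0.183) and E8-cDRGcm (0.14, 0.013 to 0.259, adjusted p = 0.0602) did not pass the test.

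**Figure D2:**
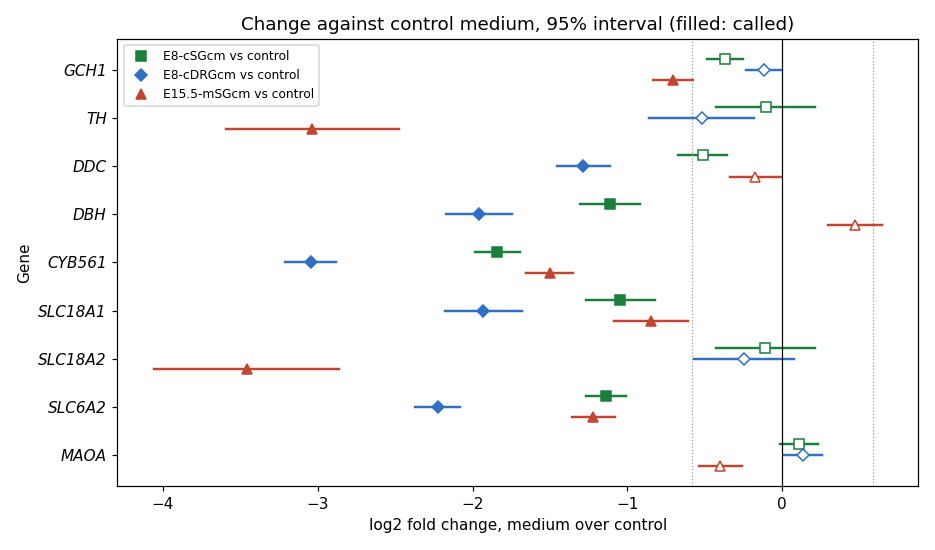
log2 fold change of each tested gene in each conditioned medium over control medium, with its 95% interval from edgeR, where filled symbols are called and dotted lines mark a fold change of 1.5. CYB561, SLC18A1 and SLC6A2 are called in all 3 media, TH, SLC18A2 and GCH1 in E15.5-mSGcm only, and DBH lies on opposite sides of 0.

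The media were then compared with each other, which tests the differences between them directly. Between the media of the chick ganglia, 5 of 9 members were called, where 7.49% of all tested genes were called in either direction, and all 5 were lower in E8-cDRGcm. They were CYB561 (log2 difference -1.20 ± 0.0934 SE, adjusted p = 1.19e-12), SLC6A2 (-1.08 ± 0.0754, adjusted p = 8.91e-14), SLC18A1 (-0.89 ± 0.139, adjusted p = 5.12e-06), DBH (-0.85 ± 0.12, adjusted p = 8.24e-07) and DDC (-0.77 ± 0.0896, adjusted p = 1.66e-08). GCH1 was higher in E8-cDRGcm by a log2 difference of 0.25 (adjusted p = 0.00104), under the fold criterion. For TH (-0.41, 95% interval -0.758 to -0.07, and -0.61 with a call without replicate 2 of E8-cDRGcm), SLC18A2 (-0.14, -0.467 to 0.195) and MAOA (0.03, -0.095 to 0.151) the test was not passed.

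Between the media of mouse and chick sympathetic ganglia, 3 of 9 members were called, where 22.3% of all tested genes were. TH (log2 difference -2.93 ± 0.282 SE, adjusted p = 4.82e-11) and SLC18A2 (-3.35 ± 0.301, adjusted p = 8.88e-12) were lower in E15.5-mSGcm, and DBH was 3-fold higher (95% interval 2.62 to 3.43, adjusted p = 2.25e-16). DDC (0.34, adjusted p = 0.00121), CYB561 (0.34, adjusted p = 0.00103), GCH1 (-0.33, adjusted p = 5e-05) and MAOA (-0.51, adjusted p = 6.79e-08) passed the adjusted p and not the fold criterion. SLC6A2 (-0.08, 95% interval -0.23 to 0.068) and SLC18A1 (0.20, -0.072 to 0.469) did not pass the test.

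Between E15.5-mSGcm and E8-cDRGcm, 8 of 9 members were called, where 26.2% of all tested genes were. DBH was 5.39-fold higher in E15.5-mSGcm (95% interval 4.64 to 6.27, adjusted p = 8.22e-21), CYB561 2.91-fold (2.54 to 3.34), DDC 2.16-fold (1.89 to 2.46), SLC18A1 2.12-fold (1.72 to 2.62) and SLC6A2 2.01-fold (1.79 to 2.25). TH was 5.71-fold lower (3.76 to 8.67), SLC18A2 9.26-fold lower (6.02 to 14.3) and GCH1 1.5-fold lower (1.37 to 1.64). GCH1 stood at the fold criterion and was called in 11 of 18 alternative settings, with log2 differences of -0.565 without replicate 1 of E8-cDRGcm and -0.57 without replicate 2 of E15.5-mSGcm.

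**Figure D3:**
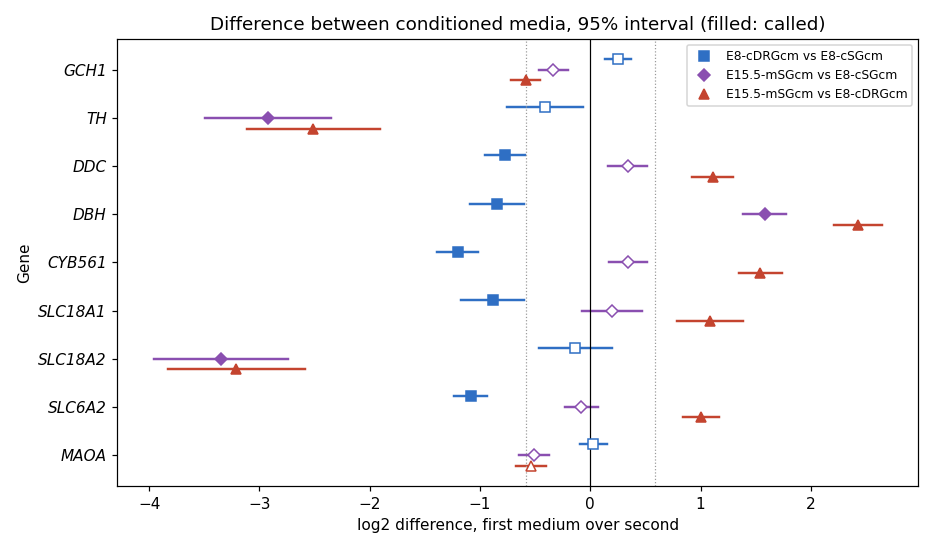
log2 difference of each tested gene between pairs of conditioned media, with its 95% interval from edgeR, where filled symbols are called and dotted lines mark a fold change of 1.5. TH and SLC18A2 lie below -2.5 in both comparisons of E15.5-mSGcm, in which DBH lies at 1.58 and 2.43.

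Among the other genes of tetrahydrobiopterin metabolism and aromatic substrate supply, 7 of 8 listed genes were tested. PTS and SPR, which complete the cofactor that GCH1 begins, fell in E8-cSGcm (log2 fold changes -0.78, adjusted p = 2.72e-06, and -0.59, adjusted p = 0.0114). Both fell in E8-cDRGcm too (-0.65, adjusted p = 1.66e-05, and -1.24, adjusted p = 2.08e-06). In E15.5-mSGcm, PTS (0.05) and SPR (-0.22) did not pass the test. GCHFR, the feedback regulator of GCH1, rose in all 3 media, from 5 and 4 reads in control medium to 13 and 17 in E8-cSGcm, 16 and 10 in E8-cDRGcm, and 16 and 9 in E15.5-mSGcm (adjusted p = 0.0124, 0.0218 and 0.0021). These calls rested on few reads and were lost without replicate 2 of control medium in E8-cSGcm (1.525, adjusted p = 0.125) and E8-cDRGcm (1.31, adjusted p = 0.15), without replicate 2 of E8-cSGcm (1.68, adjusted p = 0.0776), without replicate 1 of E8-cDRGcm (1.17, adjusted p = 0.213) and without replicate 1 of E15.5-mSGcm (1.65, adjusted p = 0.098). The call of SPR in E8-cSGcm was lost without replicate 2 of control medium (-0.42) or replicate 1 of E8-cSGcm (-0.43), and that of PTS in E8-cDRGcm without replicate 1 of control medium (-0.56) or of E8-cDRGcm (-0.55). The list's median log2 fold change was -0.181 in E8-cSGcm, -0.415 in E8-cDRGcm and -0.216 in E15.5-mSGcm.

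The list of breakdown and low-affinity uptake had 7 tested genes of 11, with median log2 fold changes of 0.406, 0.258 and -0.322 in the same order of media. ALDH2, an aldehyde dehydrogenase acting after monoamine oxidase, rose in E8-cSGcm (0.59, adjusted p = 5.37e-09) and E8-cDRGcm (0.60, adjusted p = 1.06e-09), both close to the fold criterion. ALDH2 was called in 12 of 18 alternatives in E8-cSGcm and in 16 of 18 in E8-cDRGcm, and its log2 fold changes without replicate 2 of control medium were 0.52 and 0.53. They were 0.54 and 0.58 without replicate 2 of the medium itself, and 0.584 in E8-cSGcm without replicate 1 of E8-cDRGcm, all under the criterion. SLC29A4, the plasma membrane monoamine transporter, rose in E8-cSGcm (0.63, adjusted p = 1.17e-05, lost at 0.52 without replicate 1 of that medium) and fell in E15.5-mSGcm (-0.90, adjusted p = 3.78e-06). AKR1B1, an aldose reductase, rose in E15.5-mSGcm from 1053 and 1202 reads to 1613 and 2371 (1.585, adjusted p = 3.98e-06).

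Of the genes that supply copper, ascorbate and tyrosine, 11 of 13 were tested, with medians of 0.241, 0.365 and -0.017. SLC7A5, the large neutral amino acid transporter that carries tyrosine and L-DOPA, rose in E8-cSGcm (0.61, adjusted p = 4.39e-11, lost at 0.58 without replicate 2 of control medium) and E8-cDRGcm (1.03, adjusted p = 2.91e-18) and fell in E15.5-mSGcm (-1.07, adjusted p = 5.95e-16). Its partner SLC3A2 rose in E8-cDRGcm (0.94, adjusted p = 1.47e-16). CYB561D1 and CYB561D2, relatives of CYB561, fell in E8-cDRGcm (-1.07, adjusted p = 0.00424, and -1.07, adjusted p = 0.000564), the first losing its call without replicate 2 of that medium (-0.79, adjusted p = 0.092). SLC16A10, an aromatic amino acid transporter, was the other gene of this list that rose in E8-cSGcm, named after its values were seen. Of 25 listed subunits of the vacuolar proton pump, which powers the vesicular transporters, 18 were tested, and TCIRG1 alone was called in each medium, lower by log2 differences of -0.84, -1.61 and -1.09 (adjusted p = 0.00164, 2.5e-07 and 0.000411). In E8-cSGcm this call was lost without replicate 2 of control medium (-0.69, adjusted p = 0.0543). The medians of the pump genes were -0.019, -0.159 and 0.252. Over all tested genes, 3.86%, 10.9% and 7.27% were called lower in E8-cSGcm, E8-cDRGcm and E15.5-mSGcm. TCIRG1 as the only call among 18 tested genes does not set the pump list apart from these shares.

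Of the adrenergic and dopamine receptors, 6 of 14 were tested, with medians of -0.205, -0.571 and 0.204. ADRA2C, an inhibitory adrenergic receptor, fell in E8-cSGcm (-0.62, adjusted p = 0.00156, lost at -0.555 without replicate 1 of that medium) and E8-cDRGcm (-0.73, adjusted p = 0.000126). In E15.5-mSGcm, DRD2 fell (-1.575, adjusted p = 1.65e-09), ADRA2A fell (-1.05, adjusted p = 0.0126) and ADRA1D rose from 4 and 5 reads to 18 and 18 (adjusted p = 8.93e-05). The call of ADRA2A was lost without replicate 1 of control medium (-0.999, adjusted p = 0.0531), without replicate 2 of E15.5-mSGcm (-0.75, adjusted p = 0.2) and with DESeq2 (adjusted p = 0.0856).

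The transcription factors of noradrenergic identity were also counted, 14 of 15 tested. Of these, 6 fell in E8-cSGcm, 9 in E8-cDRGcm and 5 in E15.5-mSGcm, where 3.86%, 10.9% and 7.27% of all tested genes fell, and their median log2 fold changes were -0.534, -0.917 and -0.485. GATA2, a factor that regulates TH and DBH in sympathetic cells, had mean levels of 760 ± 15.1 CPM in control medium, 294 ± 5.07 in E8-cSGcm, 181 ± 2.13 in E8-cDRGcm and 506 ± 6.52 in E15.5-mSGcm (SD, n = 2 each), and fell in all 3 media (log2 fold changes -1.37, -2.07 and -0.59). The last stood at the fold criterion and was called in 8 of 18 alternatives. With the GC and length correction it was -0.383, well under the criterion. With a library left out it was -0.575 (replicate 2 of control medium), -0.58 (replicate 2 of E15.5-mSGcm) and -0.58 (replicate 1 of E8-cDRGcm). KLF13, named after its values were seen and 1 of the 6 in E8-cSGcm, was called there in 6 of 18 alternatives and was lost (adjusted p of 0.0518 to 0.252) whichever library was left out. HAND1, a basic helix-loop-helix factor of the same cells, fell in all 3 (-0.77, -1.12 and -0.89, adjusted p = 1.81e-12, 1.66e-17 and 9.34e-14). PHOX2A fell in E8-cDRGcm (-1.03, adjusted p = 1.91e-17), with log2 differences of -0.51 in E8-cSGcm and -0.49 in E15.5-mSGcm that were under the fold criterion. HAND2 (-0.04, 0.01 and -0.48) and GATA3 (-0.36, -0.23 and -0.43) were not called in any medium. Of this list, 5 genes also stand among the neuroblast markers.

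Of the CRE-binding and immediate early factors, 12 of 13 were tested, with medians of -0.069, 0.286 and 0.117. CREM, a cAMP-responsive regulator, rose in all 3 media (0.69, 1.33 and 1.05, adjusted p = 0.000384, 2.12e-10 and 7.52e-07), the first under the fold criterion at 0.52 without replicate 2 of control medium. NR4A3, an orphan nuclear receptor induced early by stimuli, rose in E8-cSGcm (1.565, adjusted p = 1.38e-05) and E8-cDRGcm (2.46, adjusted p = 3.85e-11), and its log2 difference in E15.5-mSGcm was 0.05. FOS rose in E8-cDRGcm (1.30, adjusted p = 0.000205), and EGR1 fell in E8-cSGcm (-1.04, adjusted p = 4.34e-05) and E15.5-mSGcm (-0.71, adjusted p = 0.00527). The second call of EGR1 was lost without replicate 1 of control medium (-0.53, adjusted p = 0.095), without replicate 2 of E15.5-mSGcm (-0.65, adjusted p = 0.0669) and with DESeq2 (adjusted p = 0.05). NR4A1 in E8-cDRGcm and JUNB in E15.5-mSGcm were the other genes of this list that rose, and both are named after their values were seen.

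The cholinergic markers, 4 of 5 tested, show whether genes of the other sympathetic transmitter moved, and their medians were 0.117, 0.668 and -0.719. ACHE, acetylcholinesterase, rose in E8-cSGcm (0.83, adjusted p = 0.00286, lost at 0.645 and an adjusted p of 0.0667 without replicate 1 of that medium) and E8-cDRGcm (1.28, adjusted p = 1.87e-06). CHAT, which makes acetylcholine, rose in E8-cDRGcm from 7 and 5 reads to 25 and 17 (adjusted p = 0.00172), while SLC18A3, its vesicular transporter, fell there (-0.67, adjusted p = 0.0102). In E15.5-mSGcm, SLC18A3 (-0.96, adjusted p = 0.00322) and the choline transporter SLC5A7 (-2.16, adjusted p = 1.04e-13) fell. In E8-cDRGcm, without replicate 1 of that medium, the calls of CHAT (1.52, adjusted p = 0.0565) and SLC18A3 (-0.31, adjusted p = 0.244) were lost, and that of SLC18A3 also without replicate 1 of control medium (-0.625, adjusted p = 0.0667). Without replicate 2 of E15.5-mSGcm, SLC18A3 there was at -0.75 (adjusted p = 0.0774). Of 5 markers of serotonin, dopamine uptake and histamine, 1 was tested, with log2 differences of 0.80, 0.65 and -0.02, and it was not called.

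Markers of other cells moved with the medium in part. In the summed level of 6 fibroblast markers, control libraries had 413 to 425 CPM and E15.5-mSGcm libraries 466 to 473, and in E15.5-mSGcm DCN (2.30), LUM (0.93) and PDGFRA (3.65) rose and COL1A1 (-1.82) fell. In E8-cDRGcm DCN fell (-0.69). The summed level of the 9 neuroblast markers was 3405.7 to 3513.8 CPM in control medium, 3382.2 to 3523.9 in E8-cSGcm, 3206.7 to 3329.1 in E8-cDRGcm and 2918.7 to 2923.1 in E15.5-mSGcm. Among them, NEFM rose in all 3 media, GAP43 rose in both chick media, and PHOX2A and ISL1 fell in E8-cDRGcm. The 6 Schwann cell and glial markers summed to 1.12 to 1.45 CPM in control medium and 2.24 to 4.1 CPM in the conditioned media, and ERBB3 rose in E8-cDRGcm (1.765) and E15.5-mSGcm (1.72). The 6 sensory neuron markers, of which SCN10A was at 0 in all libraries, summed to 2.82 to 9.31 CPM, and the 5 adrenal cortex markers to 1.72 to 6.25 CPM. STAR, of the adrenal cortex list, fell in E8-cDRGcm (-1.44). The part of these markers in the levels of the catecholamine genes was not tested.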

How the data were processed

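RNA-seq was done on 8 libraries of IGR-N91 aggregates as 75 bp single reads, with a stranded kit and 50 ng of RNA. The authors deposited raw counts per Ensembl gene, without normalization. The submitters' processing notes name bcl2fastq 2.17.1.14, cutadapt 1.9.1, TopHat2 2.1.0, HTSeq 0.11.3 and GRCh38, while the paper names hg19. Symbols and exonic lengths came from a lifted GENCODE annotation, which named 58611 of 60676 identifiers, and printed positions from RefSeq matched by symbol. Groups came from the titles of the libraries, and the labels name no batch.

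Counts were filtered by filterByExpr, normalised by TMM and tested with edgeR 4.0.16 (robust quasi-likelihood fit, R 4.3.3). The authors' thresholds on adjusted p and fold change were used. Alternatives were DESeq2 1.42.0, RLE factors, other filters, fits of the compared libraries, calls by adjusted p without a fold criterion, a block for replicate numbers, GC and length correction (splines with 5 degrees of freedom), thinning to 7930765 counts, and leaving out each library. Scripts were tested on simulated counts. Figures used matplotlib 3.10.9.

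The members and lists were chosen with earlier results of these data known. All members were named, and of each other list at most the 4 called genes with the largest changes, with PHOX2A, HAND1, HAND2 and GATA3 named in any case, genes overlapping a member, and further genes only to complete a small count. Some genes of these lists are not reported here. Marker lists were printed by their summed levels. The p-values assume that 2 libraries per group represent the spread, and depth limits precision for TH and SLC18A2 in E15.5-mSGcm.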

Additional observations from a re-analysis of the deposited data

Results flagged for a closer look

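DBH moved in opposite directions against control medium in the media of chick and mouse ganglia, and the test of the difference itself passed. The log2 difference between E15.5-mSGcm and E8-cSGcm was 1.58 (edgeR quasi-likelihood test, adjusted p = 2.25e-16), and that between E15.5-mSGcm and E8-cDRGcm was 2.43 (adjusted p = 8.22e-21), with 2 libraries in each group and no overlap between groups. Species, embryonic stage and, for E8-cDRGcm, ganglion differ together between these media and cannot be told apart. The higher level in E15.5-mSGcm than in control medium was itself under the fold criterion.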

How the results depend on the processing

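Of 480 recomputed values of the tested members against control medium, 469 kept their direction and their side of the threshold, 9 passed it only under the alternative, and 2 changed sign. The sign changes were SLC18A2 in E8-cSGcm, which was not called, at 0.009 without control replicate 1 and 0.103 without E8-cSGcm replicate 1 (-0.385 to 0.103 over all libraries left out). The values that passed were TH in E8-cDRGcm (-0.62 when thinned, -0.71 without E8-cDRGcm replicate 2, while its adjusted p reached 0.159 without E8-cDRGcm replicate 1), DBH in E15.5-mSGcm (0.68 with the GC and length correction) and, with adjusted p alone, also DDC and GCH1 in E8-cSGcm and MAOA in E15.5-mSGcm. The members called between E15.5-mSGcm and E8-cSGcm were 1 in place of 3 when a gene needed 10 counts in each library, which removes TH and SLC18A2, and 7 with adjusted p alone, which drops the fold criterion. The filter at 10 counts also left 4 members called in place of 6 in E15.5-mSGcm against control medium. TH and SLC18A2 have no value under that filter among the 480. Between E15.5-mSGcm and E8-cDRGcm the members called were 5 in place of 8 with that filter. The share of all genes called between media under these settings is not given here. Leaving out each library in turn gave 4 to 4 members called in E8-cSGcm, 5 to 6 in E8-cDRGcm and 6 to 6 in E15.5-mSGcm against control medium, and 5 to 6, 3 to 3 and 7 to 8 between the media. Same-numbered libraries did not vary together (correlations of deviations -0.0437 to 0.042 across genes), and with the replicate block 4, 5 and 6 members were called against control medium and 5, 3 and 8 between media, as without it. Adjusted p alone gave 2679 higher and 2534 lower genes of 16680 in E8-cSGcm, 4143 and 4118 in E8-cDRGcm, and 2975 and 3330 in E15.5-mSGcm. For the vacuolar proton pump it gave up to 11 genes higher in E15.5-mSGcm. With DESeq2, 448, 1453 and 889 of the 16680 genes fell in the 3 media. The counts of noradrenergic factors that follow are to be read beside these totals. Over the alternatives, 5 to 12, 8 to 12 and 3 to 10 noradrenergic transcription factors fell in the 3 media. Of 66 calls in the related lists against control medium, 42 held in every alternative that tested the gene and 24 were lost in at least 1. Between media, MAOA was also called with the GC and length correction (-0.68 and -0.66 in E15.5-mSGcm against E8-cSGcm and E8-cDRGcm). The 6 to 9 reads of TH and SLC18A2 in E15.5-mSGcm limit the size of their fold changes to the intervals given.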
